A study of Mus musculus with 6 samples.

Results

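The 57 genes described here mark the macrophages of the liver (Kupffer cells), other myeloid cells and neutrophils, or encode the cytokines and chemokines that these cells send and receive. They were taken by symbol from the 31950 genes of 1 RNA-seq table, and all 57 were found. The list was drawn up with earlier results of these data known, so its counts beside those of all genes are descriptive. RNA-seq had been performed on livers of C57BL/6 mice, 3 WT and 3 β-cateninΔ(ex3)/+, with 1 library per liver, and both groups are labelled as 8 weeks old. β-cateninΔ(ex3)/+ mice carry 1 allele of the β-catenin gene (*Ctnnb1*) without exon 3, the exon whose loss keeps β-catenin from being degraded. In the methods of the study, global deletion in hepatocytes was obtained with a tamoxifen-induced Cre under control of the albumin promoter, described for the livers used in metabolic analysis. The section on RNA-seq does not name the Cre, the tamoxifen treatment of either group or the sex of the mice. In that model the deletion is aimed at hepatocytes, whereas most of the 57 genes are transcribed mainly in other cells of the liver.

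Kupffer cells are resident macrophages of the liver sinusoids. They take up bacteria, aged red blood cells and lipoproteins from the blood, depend on the receptor of colony stimulating factor 1 for survival, and are told apart from incoming monocytes by surface proteins such as CLEC4F, TIM4 and VSIG4. Chemokines are small secreted proteins that attract leukocytes carrying the matching receptors, and hepatocytes, endothelial cells and stellate cells secrete them as well as macrophages. Neutrophils fill their granules during maturation, so that transcripts of granule proteins are abundant in precursors, in the bone marrow of adults and in the liver before and shortly after birth, and scarce in circulating neutrophils.

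Expression was measured as FPKM, which scales a gene's fragments by transcript length and library size. Values of single livers are given in the order of replicates 1 to 3 of each group, and SE is the standard error of a log2 fold change. Depth, estimated from the steps between low values, was 24.4 M to 24.7 M fragments in WT and 17.0 M to 19.6 M in β-cateninΔ(ex3)/+ livers. *Ctnnb1* had 25.9, 27.95 and 27.3 FPKM in WT and 25.4, 25.2 and 25.04 FPKM in β-cateninΔ(ex3)/+ livers, and gene-level values cannot show the loss of exon 3. The hepatocyte marker *Alb* was at 41343, 43342 and 39618 FPKM in WT and 24788, 25012 and 24721 FPKM in β-cateninΔ(ex3)/+ livers, as the label liver requires. The groups also differed in genes of age and sex. *Afp*, which is shut off in hepatocytes after birth, had 601, 612 and 610.5 FPKM in WT and 2.48, 2.38 and 2.81 FPKM in β-cateninΔ(ex3)/+ livers, and *Igf2* was listed at 0 in every β-cateninΔ(ex3)/+ liver against 836, 803 and 847 FPKM in WT livers. *Xist* was at 20.3, 22.2 and 21.1 FPKM in WT livers and at most 0.0146 FPKM in β-cateninΔ(ex3)/+ livers, while the Y-linked gene *Eif2s3y* was at most 0.0169 FPKM in WT and 9.94, 9.20 and 9.37 FPKM in β-cateninΔ(ex3)/+ livers. Of the genes known to be higher in adult male liver all 8 were differentially expressed and higher in β-cateninΔ(ex3)/+ livers, and of those higher in adult female liver 5 of 7 tested were lower and 1, *Cyp17a1*, was higher. All 3 livers of a group shared these levels, so sex, developmental state and genotype cannot be told apart in any comparison below.

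Of the 57 genes, 52 had a mean of at least 0.5 FPKM over the 6 livers and were tested with limma on log2(FPKM + 1), among 13243 genes in all. Because this minimum applied to the mean of all 6 livers, a gene could pass it through either group alone. *Cxcl13*, *Ly6c1*, *Tnf*, *Ccr2*, *Ccl3* and *Itgax* passed it only through the β-cateninΔ(ex3)/+ livers, and *Mpo* and *Cx3cr1* only through the WT livers. The counts below include these genes. Following the thresholds of the study, genes with an adjusted p under 0.05 and at least a 2-fold change were taken as differentially expressed. On this scale the change of a gene with low FPKM is understated. In β-cateninΔ(ex3)/+ livers 20 of the 52 genes were differentially expressed and higher, against 8.17% of all genes tested, and 8 were lower, against 4.52%. A further 15 were higher and 1 was lower past the adjusted p alone, with a change of log2(FPKM + 1) short of 2-fold. With these, 35 genes were higher and 9 lower past the adjusted p, against 37.4% and 19.6% of all genes tested. The same shares over all genes tested apply beside the counts of every list below. The remaining 8 passed neither threshold. The median log2 fold change of the 52 genes was 0.73, against 0.14 over all genes tested. In 45 of the 52 the values of the 3 WT and the 3 β-cateninΔ(ex3)/+ livers did not overlap, a pattern seen in 66.0% of all genes tested, and 3 livers against 3 cannot give an exact permutation p below 0.1. That share applies wherever groups are said below not to overlap. Median-ratio scaling moved the log2 fold changes of all genes by a median of -0.14 and changed the number of differentially expressed genes from 1082 higher and 598 lower to 851 higher and 753 lower. Among the 52 genes it left 17 higher and 8 lower.

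**Figure D1:**
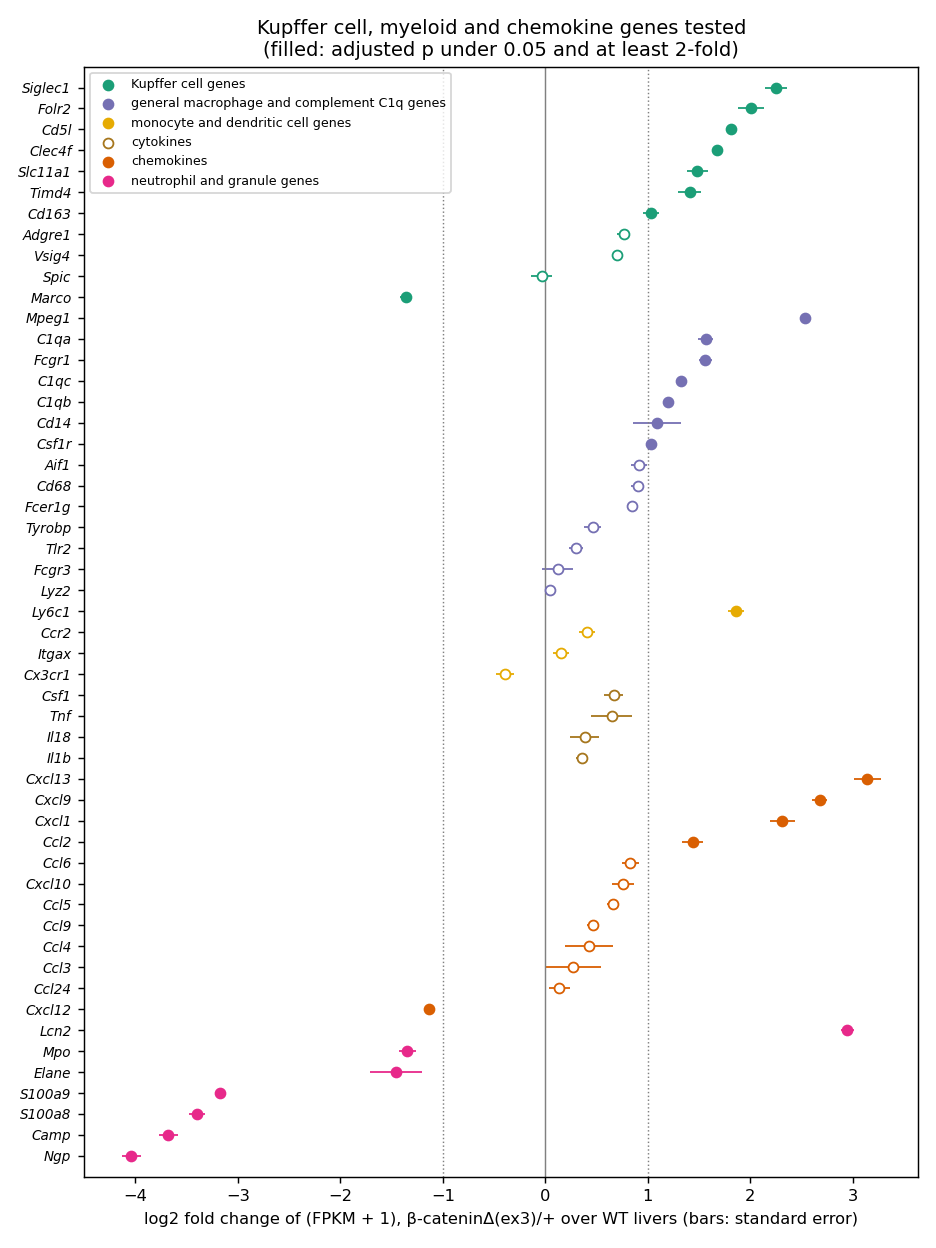
Log2 fold change of (FPKM + 1) in β-cateninΔ(ex3)/+ over WT livers (horizontal axis) of the 52 genes tested (vertical axis), grouped by role, with bars for the standard error and filled points for the 28 differentially expressed genes. The neutrophil granule genes lie at the far left, at -4.04 to -1.35, with *Lcn2* at 2.95, while most Kupffer cell, macrophage and chemokine genes lie to the right of 0 and *Marco* and *Cxcl12* to the left.

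Among the 11 Kupffer cell genes, 7 were differentially expressed and higher in β-cateninΔ(ex3)/+ livers, 1 was lower, 2 were higher past the adjusted p alone and 1 passed neither threshold. The median log2 fold change was 1.41. The summed level of the 11 genes was 206 to 209 FPKM in WT and 498 to 506 FPKM in β-cateninΔ(ex3)/+ livers. In RNA from whole liver, a change in the number of cells of a type and a change in RNA per cell cannot be told apart.

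*Clec4f*, a lectin receptor found on Kupffer cells and on few other cells (ENSMUSG00000014542, chromosome 6, 83644542 to 83656187), had 47.7, 49.7 and 48.2 FPKM in WT and 159, 159 and 155 FPKM in β-cateninΔ(ex3)/+ livers. The groups were far apart compared with the spread within each, with a log2 fold change of 1.68 (SE 0.031, limma adjusted p = 2.76e-07). *Cd5l*, a secreted scavenger receptor protein that inhibits apoptosis of macrophages (ENSMUSG00000015854, chromosome 3, 87357881 to 87371073), had 55.6, 58.2 and 56.5 FPKM in WT and 205, 199.8 and 199 FPKM in β-cateninΔ(ex3)/+ livers. It was the highest of the 11 genes in every liver, and its log2 fold change was 1.81 (SE 0.032, limma adjusted p = 2.31e-07). *Timd4*, whose product TIM4 binds phosphatidylserine on dying cells and marks resident Kupffer cells of embryonic origin (ENSMUSG00000055546, chromosome 11, 46810800 to 46844332), was at 5.29, 7.18 and 5.52 FPKM in WT and 17.6, 18.4 and 16.3 FPKM in β-cateninΔ(ex3)/+ livers. Every β-cateninΔ(ex3)/+ liver was more than 2-fold above every WT liver, and the log2 fold change was 1.41 (SE 0.11, limma adjusted p = 0.000122).

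*Siglec1*, the sialic acid receptor CD169 (ENSMUSG00000027322, chromosome 2, 131069220 to 131086765), had 0.520, 0.804 and 0.452 FPKM in WT livers, near the lower end of what was tested, and 6.84, 5.91 and 6.94 FPKM in β-cateninΔ(ex3)/+ livers. This was the largest log2 fold change among the Kupffer cell genes, 2.25 (SE 0.11, limma adjusted p = 1.29e-05). *Folr2*, a folate receptor of resident macrophages (ENSMUSG00000032725, chromosome 7, 101839988 to 101857194), had 7.27, 7.77 and 5.67 FPKM in WT and 27.2, 33.6 and 31.3 FPKM in β-cateninΔ(ex3)/+ livers, with a log2 fold change of 2.01 (SE 0.13, limma adjusted p = 4.51e-05). *Slc11a1*, the metal transporter NRAMP1 of the phagosome (ENSMUSG00000026177, chromosome 1, 74375195 to 74386052), had 2.57, 1.81 and 2.49 FPKM in WT and 8.25, 7.83 and 8.38 FPKM in β-cateninΔ(ex3)/+ livers, with a log2 fold change of 1.48 (SE 0.10, limma adjusted p = 6.64e-05). In none of these genes did the groups overlap, as in 66.0% of all genes tested. *Cd163*, the receptor that clears haemoglobin bound to haptoglobin (ENSMUSG00000008845, chromosome 6, 124304656 to 124330527), had 1.03, 1.31 and 1.14 FPKM in WT and 3.69, 3.40 and 3.12 FPKM in β-cateninΔ(ex3)/+ livers, also without overlap. Its log2 fold change of 1.03 (SE 0.079, limma adjusted p = 0.000108) lay close to the 2-fold threshold and was below it after median-ratio scaling (0.90), after quantile normalization (0.90), without WT replicate 1 (0.99) and without β-cateninΔ(ex3)/+ replicate 1 (0.98).

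The pan-macrophage marker *Adgre1*, which encodes F4/80 (ENSMUSG00000004730, chromosome 17, 57358691 to 57483527), had 7.11, 8.27 and 8.15 FPKM in WT and 14.6, 13.9 and 13.5 FPKM in β-cateninΔ(ex3)/+ livers. The groups did not overlap, and the log2 fold change of 0.76 (SE 0.067, limma adjusted p = 0.000197) was less than 2-fold. *Vsig4*, the complement receptor with which Kupffer cells capture bacteria from the blood (ENSMUSG00000044206, chromosome X, 96247203 to 96293438), had 27.5, 24.9 and 27.1 FPKM in WT and 42.7, 43.7 and 44.3 FPKM in β-cateninΔ(ex3)/+ livers, with a log2 fold change of 0.70 (SE 0.048, limma adjusted p = 6.76e-05), likewise without overlap and less than 2-fold. *Spic*, a transcription factor of macrophages that recycle iron from red blood cells, had 1.13, 1.57 and 1.07 FPKM in WT and 1.33, 1.13 and 1.11 FPKM in β-cateninΔ(ex3)/+ livers. The groups overlapped and neither threshold was passed (log2 fold change -0.038, SE 0.10, limma adjusted p = 0.774).

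*Marco*, a scavenger receptor for bacteria and particles (ENSMUSG00000026390, chromosome 1, 120474538 to 120505024), went the other way. It had 50.1, 47.5 and 52.8 FPKM in WT and 19.5, 17.8 and 19.4 FPKM in β-cateninΔ(ex3)/+ livers, a log2 fold change of -1.36 (SE 0.058, limma adjusted p = 8.95e-06). In WT livers the levels of *Marco* and *Clec4f* were nearly equal, with a ratio of *Marco* to *Clec4f* of 1.03 ± 0.071 (SD, n = 3), and in β-cateninΔ(ex3)/+ livers the ratio was 0.120 ± 0.0071 (SD, n = 3). The ratio of *Cd5l* to *Clec4f* was 1.17 ± 0.0035 (SD, n = 3) in WT and 1.28 ± 0.018 (SD, n = 3) in β-cateninΔ(ex3)/+ livers, a smaller change that still exceeded the spread between livers. The ratio of *Clec4f* to *Adgre1* was 6.21 ± 0.43 (SD, n = 3) in WT and 11.3 ± 0.33 (SD, n = 3) in β-cateninΔ(ex3)/+ livers. The Kupffer cell genes thus changed by unequal amounts, and these ratios do not depend on a linear scaling between livers.

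Further Kupffer cell and macrophage genes were read from a list of 37, of which 33 were tested. In β-cateninΔ(ex3)/+ livers 8 of them were differentially expressed and higher and 2 were lower, while 12 were higher and 5 lower past the adjusted p alone, with a median log2 fold change of 0.45. Of all genes tested, 8.17% were differentially expressed and higher and 4.52% lower, and 37.4% were higher and 19.6% lower past the adjusted p. The counts of lower genes in this list were close to those shares. *C6*, a terminal complement component that hepatocytes also make, had 2.39, 1.54 and 2.07 FPKM in WT and 42.96, 43.1 and 41.7 FPKM in β-cateninΔ(ex3)/+ livers (log2 fold change 3.87, SE 0.11, limma adjusted p = 1.44e-06). *Ctss*, the lysosomal protease cathepsin S that trims the invariant chain of MHC class II, had 25.3, 26.3 and 26.6 FPKM in WT and 110.0, 111 and 111 FPKM in β-cateninΔ(ex3)/+ livers (log2 fold change 2.04, SE 0.034, limma adjusted p = 1.77e-07). The 2 differentially expressed and lower were *Tgfbi*, an extracellular matrix protein induced by TGF-β, from 37.8 ± 0.618 to 12.7 ± 0.160 FPKM (SD, n = 3), and *Hmox1*, the haem oxygenase, from 42.04 ± 1.29 to 19.7 ± 1.70 FPKM (SD, n = 3). Their log2 fold changes were -1.50 (SE 0.036, limma adjusted p = 7.74e-07) and -1.06 (SE 0.067, limma adjusted p = 4.64e-05).

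Of the 15 general macrophage and complement C1q genes, 14 were tested. In β-cateninΔ(ex3)/+ livers 7 were differentially expressed and higher, 5 were higher past the adjusted p alone and 2 passed neither threshold. The median log2 fold change was 0.97, and the summed level was 372 to 384 FPKM in WT and 816 to 829 FPKM in β-cateninΔ(ex3)/+ livers.

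C1q is the recognition molecule of the classical complement pathway, and tissue macrophages are its main source. Its 3 chains are encoded side by side on chromosome 4, *C1qb* from 136880129 to 136886187, *C1qc* from 136889804 to 136893065 and *C1qa* from 136895917 to 136898803. *C1qa* (ENSMUSG00000036887) had 80.3, 67.2 and 79.99 FPKM in WT and 226, 223 and 227 FPKM in β-cateninΔ(ex3)/+ livers, with a log2 fold change of 1.56 (SE 0.073, limma adjusted p = 1.29e-05). *C1qb* (ENSMUSG00000036905) had 78.9, 75.6 and 75.96 FPKM in WT and 176, 173 and 185 FPKM in β-cateninΔ(ex3)/+ livers, with a log2 fold change of 1.20 (SE 0.039, limma adjusted p = 2.63e-06) and 0.96 under quantile normalization. *C1qc* (ENSMUSG00000036896) had 44.03, 42.5 and 46.7 FPKM in WT and 112, 113 and 112 FPKM in β-cateninΔ(ex3)/+ livers, with a log2 fold change of 1.32 (SE 0.042, limma adjusted p = 2.62e-06). All 3 were higher in every β-cateninΔ(ex3)/+ liver than in any WT liver. The ratio of *C1qc* to *C1qb* was 0.578 ± 0.032 (SD, n = 3) in WT and 0.633 ± 0.025 (SD, n = 3) in β-cateninΔ(ex3)/+ livers, and that of *C1qa* to *C1qb* was 0.986 ± 0.086 (SD, n = 3) and 1.27 ± 0.037 (SD, n = 3).

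*Mpeg1*, the pore-forming protein perforin-2 of macrophages (ENSMUSG00000046805, chromosome 19, 12460779 to 12465283), had 7.94, 8.64 and 7.97 FPKM in WT and 52.2, 52.97 and 51.4 FPKM in β-cateninΔ(ex3)/+ livers. Its log2 fold change of 2.53 (SE 0.046, limma adjusted p = 2.31e-07) was the largest of the general macrophage genes. *Fcgr1*, the high-affinity receptor for IgG (ENSMUSG00000015947, chromosome 3, 96282909 to 96293969), had 2.42, 2.18 and 2.49 FPKM in WT and 8.68, 8.58 and 9.48 FPKM in β-cateninΔ(ex3)/+ livers, with a log2 fold change of 1.56 (SE 0.064, limma adjusted p = 7.31e-06). *Csf1r*, the receptor on which Kupffer cells depend for survival (ENSMUSG00000024621), had 12.3, 12.1 and 12.8 FPKM in WT and 26.7, 26.6 and 25.9 FPKM in β-cateninΔ(ex3)/+ livers. The livers of each group lay close together, and the log2 fold change of 1.03 (SE 0.041, limma adjusted p = 6.38e-06) was under 2-fold after median-ratio scaling (0.85) and quantile normalization (0.73). *Cd14*, the co-receptor for lipopolysaccharide (ENSMUSG00000051439), had 1.73, 1.11 and 2.36 FPKM in WT and 3.32, 5.80 and 5.33 FPKM in β-cateninΔ(ex3)/+ livers. Its SE was the largest of the general macrophage genes, β-cateninΔ(ex3)/+ replicate 1 being the lowest of its group, and the log2 fold change of 1.09 (SE 0.23, limma adjusted p = 0.0089) was under 2-fold after median-ratio scaling (0.95) and quantile normalization (0.93), without WT replicate 2 (0.91) and without β-cateninΔ(ex3)/+ replicate 2 (0.96).

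The 5 genes higher past the adjusted p alone were *Aif1*, a calcium-binding protein of macrophages, *Cd68*, a lysosomal glycoprotein, *Fcer1g* and *Tyrobp*, the signalling adaptors of Fc and other activating receptors, and *Tlr2*, the receptor for bacterial lipopeptides. Their log2 fold changes ran from 0.30 for *Tlr2* (SE 0.069, limma adjusted p = 0.0117) to 0.91 for *Aif1* (SE 0.08, limma adjusted p = 0.000192). *Cd68* went from 15.8 ± 1.10 to 30.3 ± 1.66 FPKM (SD, n = 3). *Lyz2*, the lysozyme shared by macrophages and neutrophils, had 62.2, 65.1 and 62.5 FPKM in WT and 67.5, 66.97 and 61.3 FPKM in β-cateninΔ(ex3)/+ livers, and the groups overlapped (log2 fold change 0.043, SE 0.048, limma adjusted p = 0.482). Its sign turned under median-ratio scaling (-0.15) and quantile normalization (-0.22, limma adjusted p = 0.013), and fragments shared with its near-identical neighbour gene could be split between them. The ratio of *Lyz2* to *Csf1r* was 5.11 ± 0.26 (SD, n = 3) in WT and 2.47 ± 0.087 (SD, n = 3) in β-cateninΔ(ex3)/+ livers. *Fcgr3*, a low-affinity receptor for IgG, had 6.56, 5.12 and 8.02 FPKM in WT and 7.79, 6.59 and 7.00 FPKM in β-cateninΔ(ex3)/+ livers, also with overlap (log2 fold change 0.12, SE 0.15, limma adjusted p = 0.526). *Tlr4*, the receptor for lipopolysaccharide, was not tested, with 0.254, 0.246 and 0.314 FPKM in WT and 0.371, 0.414 and 0.358 FPKM in β-cateninΔ(ex3)/+ livers.

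**Figure D2:**
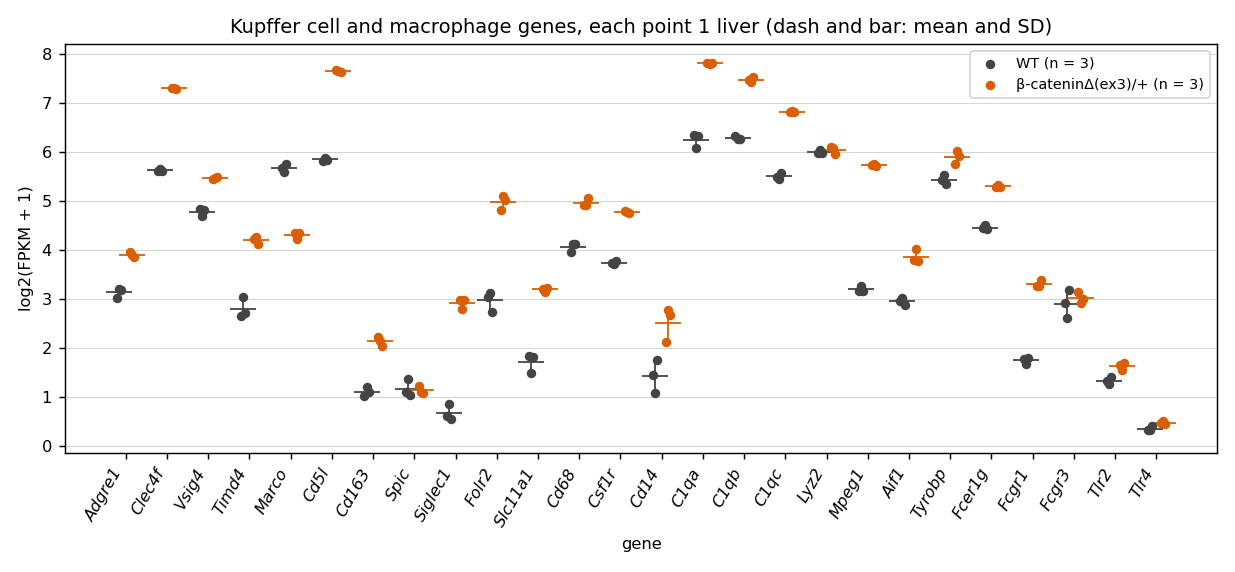
Level as log2(FPKM + 1) (vertical axis) of the 26 Kupffer cell and general macrophage genes (horizontal axis), with 1 point for each liver, a dash for the mean and a bar for the SD of 3 livers. *Clec4f*, *Cd5l*, the C1q genes and *Mpeg1* lie higher in all 3 β-cateninΔ(ex3)/+ livers, *Marco* lies lower, and the groups overlap for *Spic*, *Lyz2* and *Fcgr3*.

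Among the 5 genes of monocytes and dendritic cells, levels were low, with a sum of 2.09 to 2.51 FPKM in WT and 4.91 to 5.52 FPKM in β-cateninΔ(ex3)/+ livers. *Ly6c1* (ENSMUSG00000079018, chromosome 15, 75044018 to 75048830), a surface protein named for classical monocytes that endothelial and T cells also carry, had 0.0483, 0.0909 and 0.205 FPKM in WT and 3.25, 2.98 and 2.90 FPKM in β-cateninΔ(ex3)/+ livers. It made up most of that sum in β-cateninΔ(ex3)/+ livers and was differentially expressed, with a log2 fold change of 1.86 (SE 0.077, limma adjusted p = 7.75e-06). It passed the expression minimum only through the β-cateninΔ(ex3)/+ livers. Its near-identical paralog *Ly6c2*, the form typical of monocytes, had 1.77, 2.05 and 1.11 FPKM in WT and 3.43, 4.52 and 3.62 FPKM in β-cateninΔ(ex3)/+ livers, and the way fragments were divided between both makes each value uncertain. *Ccr2*, the receptor with which monocytes follow CCL2, had 0.393, 0.278 and 0.381 FPKM in WT and 0.690, 0.735 and 0.943 FPKM in β-cateninΔ(ex3)/+ livers (log2 fold change 0.40, SE 0.08, limma adjusted p = 0.00642). *Cx3cr1*, the fractalkine receptor of patrolling monocytes, was lower, with 0.938, 0.622 and 0.891 FPKM in WT and 0.362, 0.345 and 0.429 FPKM in β-cateninΔ(ex3)/+ livers (log2 fold change -0.39, SE 0.087, limma adjusted p = 0.00992). The groups did not overlap for either receptor, as in 66.0% of all genes tested. *Itgax*, the integrin CD11c of dendritic cells, passed neither threshold (log2 fold change 0.15, SE 0.079, limma adjusted p = 0.149). *Itgam*, the integrin CD11b of monocytes and neutrophils, was under the expression minimum, with 0.631, 0.570 and 0.624 FPKM in WT and 0.465, 0.312 and 0.284 FPKM in β-cateninΔ(ex3)/+ livers.

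In a further list of 17 monocyte and dendritic cell genes, 10 were tested, of which 3 were differentially expressed and higher and 1 lower, with 3 higher and 1 lower past the adjusted p alone. The increases of *Cd74*, the invariant chain, from 22.1 ± 1.84 to 135 ± 6.14 FPKM (SD, n = 3), and of *H2-Ab1*, the β chain of MHC class II, from 6.68 ± 0.982 to 41.3 ± 4.56 FPKM (SD, n = 3), were the largest. Both genes are also transcribed in Kupffer cells and B cells. Their log2 fold changes were 2.56 (SE 0.068, limma adjusted p = 1.16e-06) and 2.46 (SE 0.12, limma adjusted p = 1.53e-05). *Chil3*, the chitinase-like protein Ym1, fell from 5.40 ± 1.06 to 1.27 ± 0.265 FPKM (SD, n = 3; log2 fold change -1.49, SE 0.14, limma adjusted p = 0.000275). Among dendritic cell genes, *Flt3*, *Cd209a* and *Siglech* were at most 0.215 FPKM in every liver, whereas *Clec9a* (1.05, 1.01 and 0.758 FPKM in WT and 1.70, 1.51 and 1.38 FPKM in β-cateninΔ(ex3)/+ livers) and *Batf3* (1.06, 0.889 and 1.36 FPKM in WT and 3.47, 2.30 and 2.02 FPKM in β-cateninΔ(ex3)/+ livers) were higher past the adjusted p alone.

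None of the 6 cytokine genes was differentially expressed by limma. All 4 tested had an unadjusted p under 0.05 by limma. Of all genes tested, 37.4% were higher and 19.6% lower past the stricter adjusted p. Of the 4 tested, *Csf1*, the growth factor of macrophages, *Il1b* and *Tnf* were higher past the adjusted p alone. *Csf1* had 2.26, 2.88 and 2.49 FPKM in WT and 4.28, 4.44 and 5.14 FPKM in β-cateninΔ(ex3)/+ livers (log2 fold change 0.67, SE 0.093, limma adjusted p = 0.00142), and *Il1b* had 1.36, 1.31 and 1.42 FPKM in WT and 1.94, 2.12 and 2.01 FPKM in β-cateninΔ(ex3)/+ livers (log2 fold change 0.36, SE 0.056, limma adjusted p = 0.00239), both without overlap. *Tnf* was close to the expression minimum, with 0.0981, 0.244 and 0.147 FPKM in WT and 0.575, 0.533 and 1.48 FPKM in β-cateninΔ(ex3)/+ livers, and β-cateninΔ(ex3)/+ replicate 3 was far above the other livers (log2 fold change 0.65, SE 0.20, limma adjusted p = 0.0327). Its mean over the 6 livers, 0.513 FPKM, passed the minimum only through the β-cateninΔ(ex3)/+ livers, so *Tnf* is among the genes tested only because of them. At a pseudocount of 0.1 its log2 fold change was 1.78 and past both thresholds. *Il18*, a cytokine of the interleukin-1 family that Kupffer cells secrete after cleavage by inflammasomes, had 8.18, 8.77 and 6.72 FPKM in WT and 11.1, 8.67 and 12.2 FPKM in β-cateninΔ(ex3)/+ livers with overlap (log2 fold change 0.38, SE 0.14, limma adjusted p = 0.0612). *Il6* was at most 0.118 FPKM in any liver and *Il10* was 0.0622 to 0.134 FPKM in WT and 0.306 to 1.19 FPKM in β-cateninΔ(ex3)/+ livers, both under the minimum for testing.

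The 13 chemokine genes differed in both directions. Of the 12 tested, 4 were differentially expressed and higher in β-cateninΔ(ex3)/+ livers, 1 was lower, 4 were higher past the adjusted p alone and 3 passed neither threshold, with a median log2 fold change of 0.71. The 5 that passed both thresholds attract different cells: CXCL13 B cells, CXCL9 activated T cells, CXCL1 neutrophils, CCL2 monocytes, and CXCL12 B cell precursors and haematopoietic stem cells.

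*Cxcl13* (ENSMUSG00000023078, chromosome 5, 95956951 to 95961068) was close to 0 in WT livers, with 0.105, 0 and 0.213 FPKM, and had 10.5, 8.14 and 7.74 FPKM in β-cateninΔ(ex3)/+ livers. This was the largest log2 fold change of the 52 genes tested in the direction of an increase, 3.14 (SE 0.13, limma adjusted p = 7.54e-06). *Cxcl13* passed the expression minimum only through the β-cateninΔ(ex3)/+ livers. *Cxcl9* (ENSMUSG00000029417, chromosome 5, 92321347 to 92328079), induced by interferon-γ, had 2.00, 1.60 and 2.02 FPKM in WT and 16.8, 17.7 and 17.5 FPKM in β-cateninΔ(ex3)/+ livers, with a log2 fold change of 2.68 (SE 0.073, limma adjusted p = 1.28e-06). Its neighbour *Cxcl10* (ENSMUSG00000034855, chromosome 5, 92346638 to 92348882), which acts on the same receptor CXCR3, had 5.73, 6.99 and 5.46 FPKM in WT and 9.76, 11.7 and 11.2 FPKM in β-cateninΔ(ex3)/+ livers. The groups did not overlap, and its log2 fold change of 0.76 (SE 0.11, limma adjusted p = 0.00144) stayed under 2-fold. The ratio of *Cxcl9* to *Cxcl10* was 0.316 ± 0.076 (SD, n = 3) in WT and 1.60 ± 0.11 (SD, n = 3) in β-cateninΔ(ex3)/+ livers, so the order of the 2 genes was exchanged. The shared receptor gene *Cxcr3* had 0.555, 0.775 and 0.807 FPKM in WT and 0.889, 0.888 and 0.797 FPKM in β-cateninΔ(ex3)/+ livers (log2 fold change 0.12, SE 0.079, limma adjusted p = 0.238). *Ccl2* (ENSMUSG00000035385, chromosome 11, 82035571 to 82037453) had 0.769, 0.694 and 1.05 FPKM in WT and 3.85, 3.62 and 4.47 FPKM in β-cateninΔ(ex3)/+ livers, with a log2 fold change of 1.44 (SE 0.10, limma adjusted p = 7.91e-05).

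*Cxcl1* (ENSMUSG00000029380, chromosome 5, 90891241 to 90893115) and *Cxcl2* (ENSMUSG00000058427, chromosome 5, 90903871 to 90905938) are neighbouring genes for chemokines that act on the neutrophil receptor CXCR2. *Cxcl1* had 2.45, 1.56 and 2.34 FPKM in WT and 14.2, 14.6 and 14.2 FPKM in β-cateninΔ(ex3)/+ livers, with a log2 fold change of 2.31 (SE 0.12, limma adjusted p = 1.94e-05). *Cxcl2* had 0.0784, 0.0197 and 0.0396 FPKM in WT and 0.245, 0 and 0.0495 FPKM in β-cateninΔ(ex3)/+ livers, under the minimum for testing. *Cxcl12* (ENSMUSG00000061353, chromosome 6, 117168535 to 117181367), which sinusoidal endothelial and stellate cells make, had 34.3, 34.3 and 34.6 FPKM in WT and 15.4, 14.7 and 15.3 FPKM in β-cateninΔ(ex3)/+ livers. The livers of each group were almost equal, and the log2 fold change was -1.13 (SE 0.038, limma adjusted p = 3.08e-06). Its receptor gene *Cxcr4* went from 2.02, 2.36 and 2.71 FPKM in WT to 0.419, 0.988 and 0.719 FPKM in β-cateninΔ(ex3)/+ livers (log2 fold change -0.98, SE 0.14, limma adjusted p = 0.00178), while the scavenging receptor *Ackr3* went from 1.53, 0.910 and 1.21 to 0.661, 0.574 and 0.627 FPKM (log2 fold change -0.44, SE 0.11, limma adjusted p = 0.0158).

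Promoters of these 3 genes are shown because *Cxcl1* and *Cxcl2* share a motif in this window and differ in level, and *Cxcl12* is the 1 of the 13 chemokine genes that fell. Each run is the 250 bases before the RefSeq gene start (build GRCm38.p6), written 5′ to 3′ on the strand of the gene, with motif matches in capitals. The NF-kB motif, GGGA followed by any base and TTTCC, searched on both strands like the others, begins at -71 in *Cxcl1* (chr5:90890995-90891244, plus strand) and at -97 in *Cxcl2* (chr5:90903649-90903898, plus strand), counted back from -1 at the base before the start. The TCF/LEF motif CTTTGAT, the sequence bound by the partners of β-catenin, begins at -163 on the opposite strand in *Cxcl12* (chr6:117168285-117168534, plus strand).
Cxcl1: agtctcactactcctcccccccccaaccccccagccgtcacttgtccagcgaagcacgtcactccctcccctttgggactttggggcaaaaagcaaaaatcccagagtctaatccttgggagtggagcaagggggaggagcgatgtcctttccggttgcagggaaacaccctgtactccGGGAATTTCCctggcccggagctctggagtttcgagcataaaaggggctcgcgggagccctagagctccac
Cxcl2: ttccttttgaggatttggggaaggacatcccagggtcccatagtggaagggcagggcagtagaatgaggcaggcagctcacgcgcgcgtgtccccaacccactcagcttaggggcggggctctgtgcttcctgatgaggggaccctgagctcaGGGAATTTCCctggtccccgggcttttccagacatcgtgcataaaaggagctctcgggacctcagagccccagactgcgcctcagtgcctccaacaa
Cxcl12: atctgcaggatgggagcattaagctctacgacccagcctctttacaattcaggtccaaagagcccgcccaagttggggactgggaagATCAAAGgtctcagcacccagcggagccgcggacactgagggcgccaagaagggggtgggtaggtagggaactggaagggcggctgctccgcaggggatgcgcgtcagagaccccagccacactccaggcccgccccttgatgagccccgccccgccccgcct
The NF-kB motif was present in 0.337% of 27025 mouse promoters of this length and in 4 of the 45 genes with a promoter in the table, *Csf1*, *Il6*, *Cxcl1* and *Cxcl2*. Of these *Csf1* and *Cxcl1* were higher in β-cateninΔ(ex3)/+ livers, and *Il6* and *Cxcl2* were too low to be tested. CTTTGAT was present in 3.23% of all promoters and in 1 of the 45. The STAT motif TTCNNNGAA was present in 7.18% of all promoters and in 1 of the 45, *Fcgr1*. A match describes letters in this window and does not show that a factor binds there.

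*Ccl2*, *Ccl5*, *Ccl9*, *Ccl6*, *Ccl3* and *Ccl4* all lie, in this order, on chromosome 11. *Ccl5*, which attracts T cells, monocytes and eosinophils, had 7.48, 7.96 and 7.41 FPKM in WT and 12.05, 12.7 and 12.99 FPKM in β-cateninΔ(ex3)/+ livers (log2 fold change 0.66, SE 0.051, limma adjusted p = 0.000112). *Ccl6* and *Ccl9*, myeloid chemokines of rodents, had log2 fold changes of 0.83 (SE 0.082, limma adjusted p = 0.000323) and 0.46 (SE 0.056, limma adjusted p = 0.000795), and *Ccl9* was the highest of the 6 genes, at 20.7 ± 1.18 FPKM in WT and 28.9 ± 1.22 FPKM in β-cateninΔ(ex3)/+ livers (SD, n = 3). The groups did not overlap in these 3 genes, as in 66.0% of all genes tested. *Ccl3* and *Ccl4*, which activated macrophages secrete, stayed at or below 2.18 FPKM and passed neither threshold, with overlapping groups and log2 fold changes of 0.27 (SE 0.27, limma adjusted p = 0.423) and 0.43 (SE 0.24, limma adjusted p = 0.17). *Ccl24*, the eosinophil chemokine eotaxin-2 that Kupffer cells transcribe, had 4.46, 5.56 and 4.60 FPKM in WT and 4.80, 6.07 and 5.48 FPKM in β-cateninΔ(ex3)/+ livers and also overlapped (log2 fold change 0.14, SE 0.11, limma adjusted p = 0.309).

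**Figure D3:**
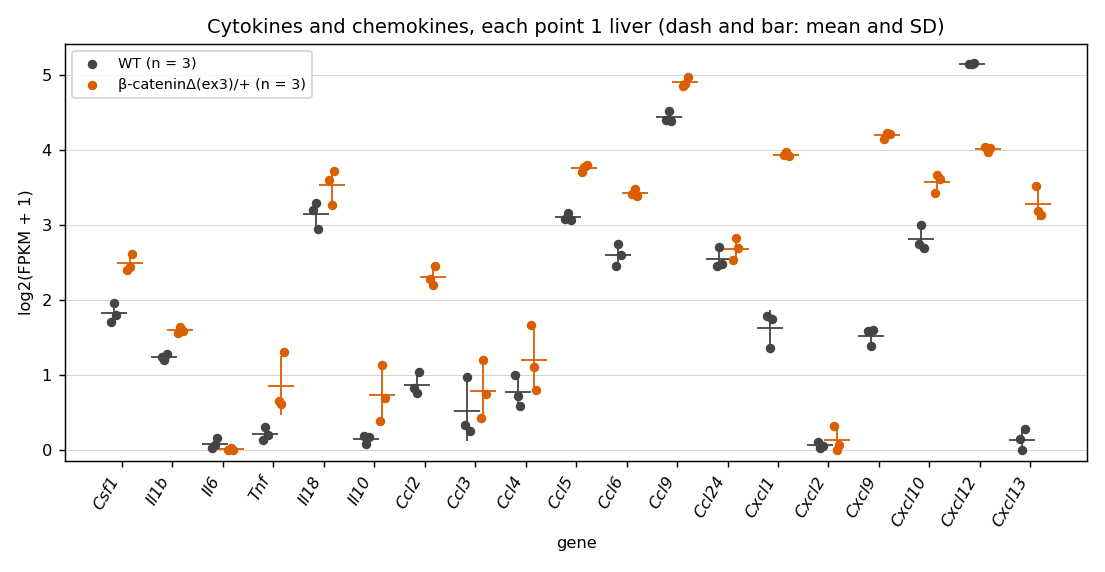
Level as log2(FPKM + 1) (vertical axis) of the 6 cytokine and 13 chemokine genes (horizontal axis), with 1 point for each liver, a dash for the mean and a bar for the SD of 3 livers. *Cxcl13*, *Cxcl9* and *Cxcl1* lie far higher in all 3 β-cateninΔ(ex3)/+ livers, *Cxcl12* lies lower, and the points of *Ccl3*, *Ccl4* and *Ccl24* overlap.

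Further chemokine genes were read from a list of 22, of which 9 were tested. *Cxcl14* rose from 0.0222, 0.0446 and 0 FPKM in WT to 6.43, 7.37 and 5.28 FPKM in β-cateninΔ(ex3)/+ livers (log2 fold change 2.84, SE 0.11, limma adjusted p = 6.13e-06). The transcript of *Cxcl11* rose from 0.00534, 0.0929 and 0.0900 to 1.70, 1.43 and 0.984 FPKM (log2 fold change 1.15, SE 0.12, limma adjusted p = 0.000473). *Cxcl14* and *Cxcl11* passed the expression minimum only through the β-cateninΔ(ex3)/+ livers. The platelet chemokines fell, *Pf4* from 15.4, 12.3 and 13.03 to 2.33, 1.79 and 1.21 FPKM (log2 fold change -2.41, SE 0.17, limma adjusted p = 6.56e-05) and *Ppbp* from 10.4, 11.3 and 10.3 to 0.824, 1.92 and 0.906 FPKM (log2 fold change -2.43, SE 0.19, limma adjusted p = 0.000103). A further 4 were higher past the adjusted p alone and 1 passed neither threshold. Of 21 chemokine receptor genes 9 were tested, none was differentially expressed, and 3 were lower past the adjusted p alone, with a median log2 fold change of -0.099. By limma, 4 of the 9 had an unadjusted p under 0.05, while of all genes tested 37.4% were higher and 19.6% lower past the stricter adjusted p.

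The neutrophil genes had the median furthest from 0 of the 6 groups of genes described. Of the 7 genes, 6 were differentially expressed and lower in β-cateninΔ(ex3)/+ livers and 1, *Lcn2*, was higher, against 4.52% lower and 8.17% higher of all genes tested. The groups did not overlap for any of the 7, a pattern seen in 66.0% of all genes tested. The median log2 fold change was -3.18. *S100a8* and *S100a9* encode the subunits of calprotectin, the most abundant protein of the neutrophil cytoplasm, and lie next to each other on chromosome 3. *S100a8* (ENSMUSG00000056054, chromosome 3, 90668978 to 90670035) had 82.02, 89.7 and 88.7 FPKM in WT and 7.99, 7.47 and 6.50 FPKM in β-cateninΔ(ex3)/+ livers, with a log2 fold change of -3.40 (SE 0.078, limma adjusted p = 6.44e-07). *S100a9* (ENSMUSG00000056071, chromosome 3, 90692632 to 90695721) had 169.9, 179 and 172 FPKM in WT and 17.7, 19.1 and 18.1 FPKM in β-cateninΔ(ex3)/+ livers, with a log2 fold change of -3.18 (SE 0.042, limma adjusted p = 7.4e-08). The ratio of *S100a8* to *S100a9* was 0.501 ± 0.017 (SD, n = 3) in WT and 0.400 ± 0.047 (SD, n = 3) in β-cateninΔ(ex3)/+ livers, and the ratios of the 2 groups did not overlap.

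*Ngp* and *Camp* encode proteins of the secondary granules, neutrophilic granule protein and the antimicrobial peptide cathelicidin, and lie near each other on chromosome 9. *Ngp* (ENSMUSG00000032484, chromosome 9, 110419747 to 110423012) had 45.9, 53.2 and 47.4 FPKM in WT and 2.38, 1.82 and 1.91 FPKM in β-cateninΔ(ex3)/+ livers. Its log2 fold change of -4.04 (SE 0.091, limma adjusted p = 6.06e-07) was the largest of the 52 genes tested in either direction. *Camp* (ENSMUSG00000038357, chromosome 9, 109847379 to 109849617) had 26.6, 28.9 and 32.2 FPKM in WT and 1.43, 1.14 and 1.51 FPKM in β-cateninΔ(ex3)/+ livers, with a log2 fold change of -3.68 (SE 0.094, limma adjusted p = 1.01e-06). The ratio of *Ngp* to *Camp* was 1.68 ± 0.19 (SD, n = 3) in WT and 1.51 ± 0.21 (SD, n = 3) in β-cateninΔ(ex3)/+ livers, a difference within the spread between livers. *Elane* and *Mpo*, neutrophil elastase and myeloperoxidase, belong to the primary granules that form first, in promyelocytes. *Elane* (ENSMUSG00000020125, chromosome 10, 79886247 to 79888215) had 4.59, 3.34 and 3.45 FPKM in WT and 0.419, 0.434 and 1.57 FPKM in β-cateninΔ(ex3)/+ livers, of which β-cateninΔ(ex3)/+ replicate 3 was the highest, and its log2 fold change was -1.46 (SE 0.26, limma adjusted p = 0.00379). *Mpo* (ENSMUSG00000009350, chromosome 11, 87793581 to 87804413) had 2.34, 2.08 and 2.27 FPKM in WT and 0.330, 0.348 and 0.143 FPKM in β-cateninΔ(ex3)/+ livers, with a log2 fold change of -1.35 (SE 0.086, limma adjusted p = 4.77e-05).

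*Lcn2*, lipocalin-2 or NGAL, is stored in secondary granules, and hepatocytes also secrete it as an acute phase protein. It (ENSMUSG00000026822, chromosome 2, 32384633 to 32387797) had 11.6, 9.92 and 10.3 FPKM in WT and 89.03, 85.3 and 91.2 FPKM in β-cateninΔ(ex3)/+ livers, a log2 fold change of 2.95 (SE 0.064, limma adjusted p = 5.04e-07). Of 12 acute phase genes of hepatocytes, *Lcn2* among them, 7 were differentially expressed and higher, 2 were higher and 3 lower past the adjusted p alone, with *Saa1* at 1.46, 1.11 and 1.47 FPKM in WT and 264, 255 and 258 FPKM in β-cateninΔ(ex3)/+ livers. Their part in the value of *Lcn2* was not tested.

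Promoters of 4 neutrophil genes are shown because *S100a8*, *S100a9* and *Ngp* fell and *Lcn2* rose. The C/EBP motif TTGCNNAA begins at -236 in *S100a9* (chr3:90695722-90695971, minus strand), at -138 and, on the opposite strand, at -11 in *Ngp* (chr9:110419558-110419807, plus strand) and at -216 in *Lcn2* (chr2:32387740-32387989, minus strand), and the PU.1 motif GAGGAAGT at -172 on the opposite strand in *S100a8* (chr3:90668821-90669070, plus strand). C/EBP and PU.1 proteins are the transcription factors under which granulocyte precursors mature.
S100a8: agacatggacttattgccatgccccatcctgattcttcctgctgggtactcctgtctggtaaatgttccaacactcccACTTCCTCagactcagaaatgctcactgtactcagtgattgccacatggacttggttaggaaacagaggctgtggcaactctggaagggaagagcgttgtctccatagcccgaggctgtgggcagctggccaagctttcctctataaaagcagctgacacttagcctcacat
S100a9: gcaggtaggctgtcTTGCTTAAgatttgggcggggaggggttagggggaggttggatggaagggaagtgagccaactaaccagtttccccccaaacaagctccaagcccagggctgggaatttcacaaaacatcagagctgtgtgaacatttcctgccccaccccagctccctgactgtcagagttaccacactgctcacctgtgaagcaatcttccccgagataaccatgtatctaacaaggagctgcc
Ngp: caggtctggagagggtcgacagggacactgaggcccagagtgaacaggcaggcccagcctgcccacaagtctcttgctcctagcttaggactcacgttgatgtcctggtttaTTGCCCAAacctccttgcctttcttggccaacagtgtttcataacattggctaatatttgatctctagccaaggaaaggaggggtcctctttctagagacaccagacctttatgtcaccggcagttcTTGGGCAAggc
Lcn2: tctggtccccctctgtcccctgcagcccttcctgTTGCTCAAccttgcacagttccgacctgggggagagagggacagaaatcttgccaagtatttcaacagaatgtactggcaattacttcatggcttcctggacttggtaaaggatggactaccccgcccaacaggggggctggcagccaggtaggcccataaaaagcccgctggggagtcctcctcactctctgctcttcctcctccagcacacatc
TTGCNNAA was present in 3 of the 7 neutrophil genes and in 9.55% of all promoters, and GAGGAAGT in 3 of the 7, *S100a8*, *Elane* and *Mpo*, and in 2.44%. Over the 45 genes with a promoter, TTGCNNAA was present in 7 and GAGGAAGT in 4, so both also occurred outside the neutrophil genes. Among the neutrophil genes the C/EBP motif was present in a gene that rose and in genes that fell, and *Camp* held none of the motifs searched.

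In a further list of 22 neutrophil genes that also holds *Lcn2*, 14 were tested, of which 8 were differentially expressed and lower, 3 were lower past the adjusted p alone and 3 were differentially expressed and higher. The largest decreases were those of *Ltf*, lactoferrin of the secondary granules, with 8.01, 9.12 and 7.61 FPKM in WT and 0.387, 0.580 and 0.268 FPKM in β-cateninΔ(ex3)/+ livers (log2 fold change -2.71, SE 0.11, limma adjusted p = 5.88e-06), and *Retnlg*, a secreted protein of neutrophils, with 13.8, 14.6 and 13.9 and 2.52, 1.39 and 1.28 FPKM (log2 fold change -2.50, SE 0.17, limma adjusted p = 6.32e-05). *Ly6g*, the marker by which mouse neutrophils are sorted, had 0.991, 0.828 and 1.03 FPKM in WT livers and was listed at 0 in every β-cateninΔ(ex3)/+ liver, as was *Fcnb*. Beside *Lcn2* the genes that rose were *Prtn3*, proteinase 3 of the primary granules, with 4.02, 2.24 and 3.51 FPKM in WT and 18.3, 20.3 and 23.3 FPKM in β-cateninΔ(ex3)/+ livers (log2 fold change 2.36, SE 0.18, limma adjusted p = 0.000101), and *Cebpe*, the transcription factor of late granule genes, with 1.21, 0.659 and 1.17 and 7.41, 7.12 and 6.76 FPKM (log2 fold change 2.02, SE 0.12, limma adjusted p = 3.85e-05). *Ngp*, *Camp* and *Ltf*, known targets of this factor, were lower, whereas *Lcn2*, also a gene of the secondary granules, was higher. A part of *Cebpe* in these values was not tested.

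**Figure D4:**
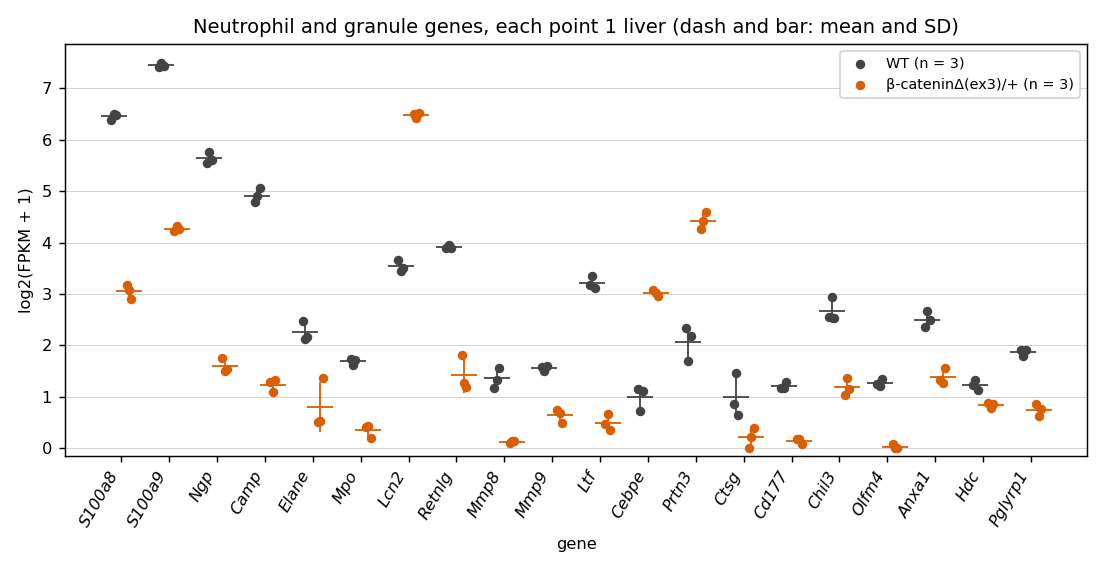
Level as log2(FPKM + 1) (vertical axis) of the 7 neutrophil and granule genes and 13 further neutrophil genes tested (horizontal axis), with 1 point for each liver, a dash for the mean and a bar for the SD of 3 livers. *S100a8*, *S100a9*, *Ngp*, *Camp* and most others lie lower in all 3 β-cateninΔ(ex3)/+ livers, and *Lcn2*, *Cebpe* and *Prtn3* lie higher.

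Erythroid, B cell and platelet markers were lower as well. Among 7 T and NK cell genes tested, 4 were higher and 1 lower past the adjusted p. Among 4 haematopoietic progenitor genes tested, 2 were higher and 1 lower past the adjusted p alone. The shares over all genes tested were 37.4% higher and 19.6% lower past the adjusted p. Of 10 erythroid precursor genes tested, 7 were differentially expressed and lower, with a summed level of 2437 to 2680 FPKM in WT and 1246 to 1286 FPKM in β-cateninΔ(ex3)/+ livers and *Rhd* listed at 0 in every β-cateninΔ(ex3)/+ liver. Of 5 B cell genes tested, 4 were differentially expressed and lower, with a sum of 31.5 to 34.8 FPKM in WT and 3.999 to 4.995 FPKM in β-cateninΔ(ex3)/+ livers. *Igll1* and *Rag1*, which are expressed in B cell precursors, were listed at 0 in every β-cateninΔ(ex3)/+ liver. Of 4 megakaryocyte and platelet genes tested, 2 were differentially expressed and lower, with a sum of 27.1 to 29.2 FPKM in WT and 3.88 to 5.32 FPKM in β-cateninΔ(ex3)/+ livers. Their part in the decrease of the neutrophil genes was not tested.

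Markers of other liver cells were read for comparison. All 9 liver endothelial genes were lower past the adjusted p, 2 of them differentially expressed, with a sum of 104 to 105 FPKM in WT and 68.6 to 71.2 FPKM in β-cateninΔ(ex3)/+ livers. All 8 stellate cell and fibroblast genes were lower, 4 of them differentially expressed, with a sum of 91.4 to 94.4 FPKM in WT and 29.7 to 32.9 FPKM in β-cateninΔ(ex3)/+ livers. These decreases accompanied that of *Cxcl12*, and their part in it was not tested. Of 4 cholangiocyte genes tested, 1 was differentially expressed and lower and 1 was lower past the adjusted p alone. Of 7 T and NK cell genes tested, 1 was differentially expressed and higher, 3 were higher and 1 was lower past the adjusted p alone, with a sum of 12.6 to 16.6 FPKM in WT and 16.5 to 17.3 FPKM in β-cateninΔ(ex3)/+ livers. The 8 hepatocyte genes were split, with 2 differentially expressed and higher and 2 lower, and their sum was 71620.5 to 75009.5 FPKM in WT and 38482.5 to 38775.2 FPKM in β-cateninΔ(ex3)/+ livers. Of 8 proliferation genes, 2 were differentially expressed and higher and 6 were higher past the adjusted p alone. Of 12 target genes of β-catenin in the liver, 9 were differentially expressed and higher, 2 were higher and 1 was lower past the adjusted p alone.

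**Figure D5:**
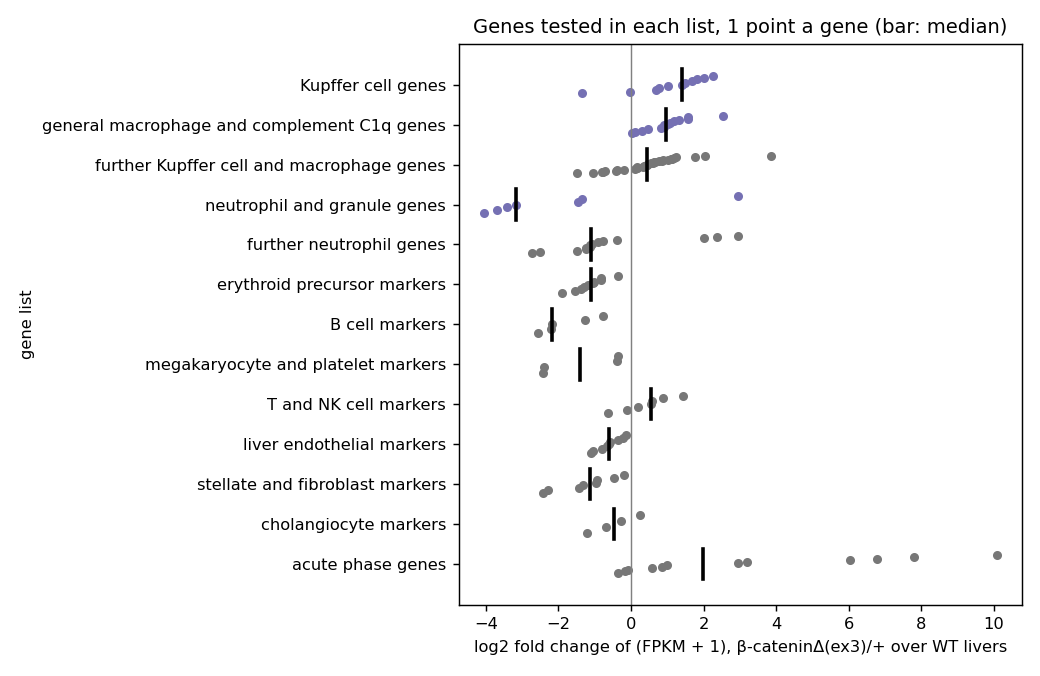
Log2 fold change of (FPKM + 1) in β-cateninΔ(ex3)/+ over WT livers (horizontal axis) for every gene tested in 13 lists (vertical axis), 1 point for each gene, with a bar for the median and the lists that are among the 57 genes in violet. The Kupffer cell and macrophage lists have medians of 1.41, 0.97 and 0.45, and the neutrophil, erythroid, B cell and platelet lists have medians below 0.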

How the data were processed

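The 6 livers, 3 WT and 3 β-cateninΔ(ex3)/+, gave 1 library each and were grouped as their labels state. By the labels, poly(A) RNA was sequenced with a strand-specific kit. The submitters' processing notes name cutadapt 1.9, HISAT2 2.0.4, StringTie 1.3.4d, DESeq2 and edgeR, without their roles. The genome build is not given in the sources used here. Deposited were FPKM, computed by the authors for each gene in each liver, and no column was left unused. Of the 31950 identifiers, 31856 were found in GENCODE M21 (GRCm38), and 27742 genes had the same start and end there. Coordinates are those of the deposited table. FPKM are not counts, so no count model was fitted and no counting interval is given. Depth was estimated from steps in the low FPKM of 8090 single-exon genes, where 23.5% to 31.5% of the low values per liver lay on whole steps (within 0.02 fragments), against 4.0% by chance.

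From the deposited FPKM, log2(FPKM + 1) was fitted over the 6 livers with limma 3.58.1 (lmFit, eBayes with trend) in R 4.3.3 for the 13243 genes with a mean of at least 0.5 FPKM, with two-sided tests and Benjamini-Hochberg adjustment over all of them. Genes with an adjusted p-value under 0.05 and at least 2-fold change were taken as differentially expressed. The fit was tested on simulated data of 12859 genes, where it recovered 47.4% of the genes changed 2.5-fold and 83.3% of those changed 4-fold and called none of the unchanged genes. In the simulation both groups had equal depth, a small fixed dispersion and a single transcript length, and only 193 genes changed. It therefore does not give the rates of recovery or of false calls in these livers. Replicate numbers do not mark shared animals, and the deviations of livers with the same number correlated by 0.027, 0.021 and -0.0054. The labels call the livers of a group replicates without saying more, so p-values measure only the spread between these samples. Promoters are those of RefSeq (GRCm38.p6), found for 45 of the 57 genes. Other steps ran in Python 3.11.15 with scipy 1.17.1, numpy 2.4.6 and pandas 2.3.3, and plots were drawn in matplotlib 3.10.9.

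The 57 genes, the further lists and the motifs were chosen with earlier results of these data known. Genes named are those past both thresholds, *Adgre1*, *Clec4f*, *Vsig4*, *Timd4*, *Cd5l* and *Marco* in any case, examples of the remainder, and up to 2 genes with the largest rise and fall in each further list. *Ly6c2*, *Saa1*, *Cyp17a1*, *Clec9a*, *Batf3*, *Il10ra*, *Ackr1*, the chemokine receptors and *Cebpe* were named after their values were seen. Alternatives tried were another pseudocount (0.1), other filters (none, or a mean of at least 1 FPKM), median-ratio scaling, quantile normalization, eBayes without trend, the replicate number as a block, and each liver left out in turn.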

Additional observations from a re-analysis of the deposited data

How the results depend on the processing

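Across 666 comparisons of a single gene with an alternative, 645 kept the direction and the side of the thresholds, 11 lost the call, 2 gained it and 8 changed sign. The genes that lost it were *Cd163*, *Csf1r*, *Cd14* and *C1qb*, and *Aif1* (1.001) and *Tnf* (1.78) gained it at a pseudocount of 0.1. Sign changes concerned genes that passed neither threshold as reported, *Lyz2* (-0.15 and -0.22, the latter with an adjusted p of 0.013 by limma), *Fcgr3* (-0.050 and -0.11) and *Ccl24* (-0.026 and -0.061) under median-ratio scaling and under quantile normalization, and, with each liver left out, *Fcgr3* (-0.025 to 0.25) and *Spic* (-0.098 to 0.060), where the sign turned without WT replicate 2. The 20 higher and 8 lower genes became 22 and 8 at a pseudocount of 0.1, 17 and 8 with median-ratio scaling, 16 and 8 with quantile normalization and 19 to 20 and 8 with each liver left out. With the replicate number as a block they were 20 and 8, and 36 were higher and 9 lower past the adjusted p. Over all genes, 1706 were higher and 999 lower at a pseudocount of 0.1, and 797 and 812 after quantile normalization. Median log2 fold changes of the Kupffer cell genes were 1.54 at a pseudocount of 0.1, 1.23 with median-ratio scaling, 1.15 with quantile normalization and 1.33 to 1.45 with each liver left out. In the same order they were 1.04, 0.79, 0.70 and 0.94 to 0.99 for the general macrophage genes, 0.67, 0.21, 0.20 and -0.016 to 0.44 for the monocyte and dendritic cell genes, 0.69, 0.24, 0.37 and 0.36 to 0.60 for the cytokines, 0.80, 0.53, 0.45 and 0.67 to 0.77 for the chemokines, and -3.24, -3.36, -3.42 and -3.20 to -3.15 for the neutrophil genes. The value of -0.016 came without β-cateninΔ(ex3)/+ replicate 3. With no filter the medians were 0.91 for the general macrophage genes, 0.15 for the monocyte and dendritic cell genes and 0.66 for the chemokines, and with a mean of at least 1 FPKM 1.86, 0.38 and 0.76 for the monocyte, cytokine and chemokine genes, as fewer genes were tested. Of the monocyte and dendritic cell genes only *Ly6c1* was then left, so 1.86 is the value of that gene alone. The median of the chemokine receptors was -0.22 to 0.075 with each liver left out, above 0 without WT replicate 1 (0.051) or β-cateninΔ(ex3)/+ replicate 1 (0.075), and that of 4 haematopoietic progenitor genes was 0.16, and -0.018 with no filter and -0.0063 after quantile normalization. The cause of these shifts was not tested. Genes with a mean below 0.5 FPKM, such as *Cxcl2*, *Il6*, *Il10*, *Itgam* and *Tlr4*, were left out of the main fit by the filter. With no filter, 34 of the genes described here were higher and 10 lower past the adjusted p. Depth is known only as an estimate, so differences at such low levels are uncertain. With all WT livers alike in sex-linked and *Afp* levels, no alternative separates those from genotype.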

Other observations

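Genes that receive or restrain cytokine signals were also read. Of all genes tested, 8.17% were differentially expressed and higher and 4.52% lower, and 37.4% were higher and 19.6% lower past the adjusted p. Of 17 cytokine receptor and NF-kB feedback genes, 15 were tested, of which 5 were differentially expressed and higher in β-cateninΔ(ex3)/+ livers, 5 were higher and 1 was lower past the adjusted p alone, and 4 passed neither threshold, with a median log2 fold change of 0.54. *Bcl3*, an atypical IkB protein, had 6.58, 5.96 and 7.17 FPKM in WT and 21.5, 19.5 and 20.3 FPKM in β-cateninΔ(ex3)/+ livers (log2 fold change 1.50, SE 0.074, limma adjusted p = 1.54e-05). *Socs3*, which STAT3 induces and which shuts off signalling through gp130, had 1.73, 1.91 and 1.99 FPKM in WT and 6.32, 7.11 and 7.73 FPKM in β-cateninΔ(ex3)/+ livers (log2 fold change 1.48, SE 0.082, limma adjusted p = 2.52e-05). Each is also transcribed in hepatocytes, and no marker separates the cell types in these data. *Il6*, a cytokine that induces *Socs3*, stayed at or below 0.118 FPKM in every liver. RNA of the liver does not show the level of the cytokine itself, and the cause of the change in *Socs3* was not tested.

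A single liver stood apart in a few low genes. *Il10ra* had 1.54, 1.63 and 1.54 FPKM in WT and 0.264, 3.27 and 3.79 FPKM in β-cateninΔ(ex3)/+ livers, and *Ackr1* had 2.14, 0.596 and 0.292 FPKM in WT and 0.369, 0.868 and 1.06 FPKM in β-cateninΔ(ex3)/+ livers, so that the spread within a group was as large as the difference between groups for both genes, which were chosen after their values were seen.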
